A study of Bos taurus with 32 samples.

Results

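The apoptosis regulators described here are genes that start or restrain programmed cell death. The list named 8 genes, and 6 of them, BCL2, BCL2L1, BAX, BAK1, CASP8 and FAS, had a probe under their symbol among the 15208 probes of the array. Each of the 6 had 1 probe, found where the gene name of the probe equalled the symbol or its description held the symbol in brackets. CASP9 and TNFRSF25 had no probe under this rule and are not analysed here under it. The probes were measured in endometrium of 4 repeat breeder (RB) and 4 non-RB Japanese Black cows, all non-lactating and all killed 15 days after estrus. From each cow caruncular endometrium (CAR), the raised areas at which the placenta attaches, and intercaruncular endometrium (ICAR), the glandular area between them, were taken from the horn ipsilateral and the horn contralateral to the corpus luteum, with 1 array per sample and 32 arrays in all. RB cows had failed to conceive after repeated inseminations, with a uterus and ovaries that were healthy on palpation. Non-RB cows had conceived, were aborted with a prostaglandin and had cycled again before slaughter, so that this history and the fertility of the group cannot be told apart.

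Apoptosis runs along an intrinsic path through the mitochondrion and an extrinsic path from receptors at the cell surface. BAX and BAK1 open the outer membrane of the mitochondrion, and BCL2 and BCL2L1 (BCL-X) hold them back. FAS is a death receptor, which upon binding its ligand recruits CASP8, the initiator caspase of the extrinsic path. In the endometrium, cell death takes part in the turnover of the epithelium and stroma over the cycle. These proteins are controlled largely by their activation and their location, which arrays of RNA do not measure.

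The probes that carried these values are 60 bases long, and those of BCL2, BCL2L1, BAX and CASP8 are shown so that it can be seen what the signal was read from. They are printed 5′ to 3′ as in the array files, with capitals marking the longest run shared, on either strand, with a probe of any other gene on the array.
BCL2: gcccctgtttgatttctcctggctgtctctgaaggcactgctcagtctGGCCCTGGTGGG
BCL2L1: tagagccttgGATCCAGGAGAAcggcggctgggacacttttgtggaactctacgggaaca
BAX: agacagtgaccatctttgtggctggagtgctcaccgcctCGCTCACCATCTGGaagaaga
CASP8: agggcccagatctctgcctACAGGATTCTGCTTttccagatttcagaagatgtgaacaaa
The longest shared run was 12 bases for BCL2 and BCL2L1 and 14 bases for BAX and CASP8. It was 14 bases for BAK1 and 13 bases for FAS. No other probe on the array had the sequence of any of these 6. The arrays name no genome build, and no coordinates are given.

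Values are log2 processed signals minus the 75th percentile of each array's own probes, so that a value of 0 lies at that percentile. A probe's level depends on its sequence as well as on its transcript, and levels are compared between samples and not between genes. Between 74.3% and 85.8% of the probes of an array were well above background. The 6 probes were well above background on all 32 arrays. The 2 arrays of slide 1, non-RB replicate 2 of CAR contralateral and non-RB replicate 1 of ICAR contralateral, stood apart, since the SD of the log2 signal over the 100 copies of the GAPDH probe was 1.32 and 0.869 there, against a median of 0.153. The differences of BAX between the groups and of the 6 genes between CAR and ICAR, the shares of variance and the correlations are also given without these 2 arrays. The SD was next highest at 0.536 in non-RB ICAR ipsilateral replicate 2. It was 0.430 and 0.395 in replicate 4 of CAR ipsilateral, non-RB and RB. FAS read -3.13, -2.75 and -3.46 on these arrays, each the lowest of its group and compartment. They stayed in the fits without slide 1, and the part of uneven spots in their values was not tested. The endometrium was bulk tissue, in which fewer cells of a type and less RNA per cell cannot be told apart. Replicates of the same number within a group were taken as the same cow, which the labels do not state.

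**Figure D1:**
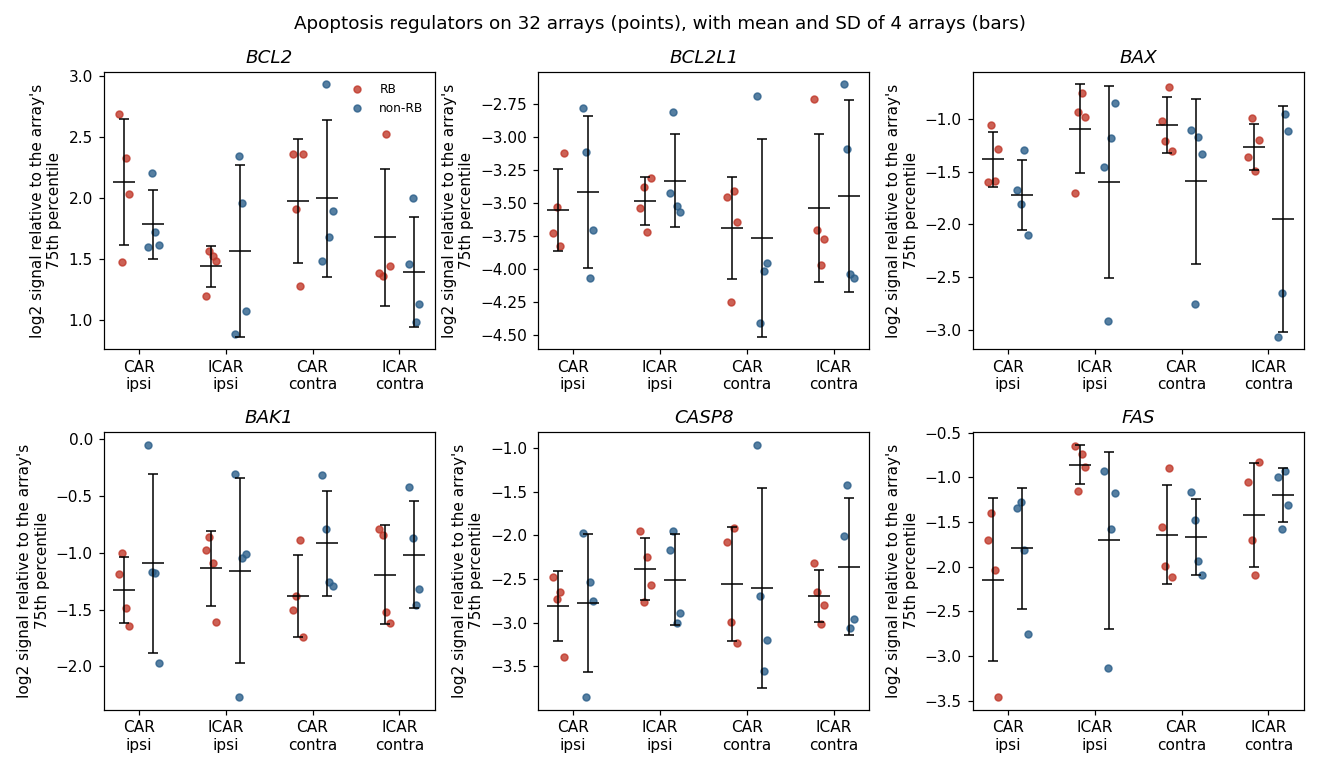
Log2 signal against each array's 75th percentile (vertical axes, a scale of its own for each gene) for the 6 genes in CAR and ICAR of the ipsilateral (ipsi) and contralateral (contra) horn. Each point is 1 array, and the bars give the mean and SD of 4 arrays. RB and non-RB arrays overlap in every gene and compartment, and the lowest BAX values, down to -3.06, are non-RB arrays.

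Among the inhibitors of the mitochondrial path, BCL2 ranged from 0.89 to 2.93 over the 32 arrays with a median of 1.61. Its highest mean was in CAR ipsilateral of RB cows (2.13 ± 0.52, SD, n = 4), where the arrays read 2.70, 1.47, 2.33 and 2.04. Its lowest mean was in ICAR contralateral of non-RB cows (1.40 ± 0.45, SD, n = 4), where they read 1.46, 1.9998, 0.99 and 1.13. The 4 cells of the design that came from CAR had the 4 highest means. Neighbours in the order of the 8 cells all overlapped, and of the 28 pairs of cells 1 did not overlap, with non-RB CAR ipsilateral above RB ICAR ipsilateral. Such pairs were not counted over all probes, so these counts are descriptions, here and for the other genes. BCL2L1 ranged from -4.41 to -2.60, and its 8 means lay within 0.43 of each other, from -3.77 ± 0.75 in non-RB CAR contralateral to -3.33 ± 0.35 in non-RB ICAR ipsilateral (SD, n = 4). Both ends of the order were non-RB cells, and all 28 pairs of cells overlapped.

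Among the effectors at the mitochondrion, BAX had its highest mean in RB CAR contralateral (-1.06 ± 0.27, SD, n = 4) and its lowest in non-RB ICAR contralateral (-1.95 ± 1.07, SD, n = 4). The 4 RB cells had the 4 highest means, and the arrays of RB and non-RB cows overlapped in each compartment. The wide spread came from few arrays. In non-RB ICAR contralateral the values were -3.06, -2.65, -0.95 and -1.11. In non-RB CAR contralateral they were -1.11, -2.76, -1.17 and -1.34, and in non-RB ICAR ipsilateral -1.46, -2.91, -1.18 and -0.85. The low values were those of non-RB replicate 2 in these 3 compartments and of replicate 1 in ICAR contralateral. BAK1 had its highest mean in non-RB CAR contralateral (-0.92 ± 0.46, SD, n = 4) and its lowest in RB CAR contralateral (-1.38 ± 0.36, SD, n = 4). All 28 pairs of cells overlapped for BAX and for BAK1.

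In the extrinsic path, FAS had the widest span of means of the 6 genes, from -2.15 ± 0.91 in RB CAR ipsilateral to -0.86 ± 0.22 in RB ICAR ipsilateral (SD, n = 4). In RB CAR ipsilateral the arrays read -1.70, -1.39, -2.04 and -3.46, and in RB ICAR ipsilateral -0.65, -1.16, -0.74 and -0.89. The RB ICAR ipsilateral arrays thus lay above all RB CAR ipsilateral arrays, and they also lay above all non-RB arrays of CAR in either horn. This cell is described because it had the highest mean, and the share of all probes with such gaps was not computed. CASP8 ranged from -3.85 to -0.96, with means from -2.81 ± 0.40 in RB CAR ipsilateral to -2.36 ± 0.79 in non-RB ICAR contralateral (SD, n = 4). All 28 pairs of cells overlapped for CASP8.

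The genes differed in where their variance lay. Either the 8 cells of the design or the 8 cows would hold 22.6% of the sum of squares over 32 arrays if it were spread evenly over the degrees of freedom. The cells held 30.8% for FAS, 25.2% for BCL2 and 23.0% for BAX, and 8.81% for BAK1, 8.15% for BCL2L1 and 6.81% for CASP8. The cows held 61.8% for BAK1, 58.5% for BAX, 47.0% for CASP8, 45.8% for BCL2L1 and 36.5% for BCL2, and 15.96% for FAS. Thus the arrays of a cow were most alike in BAK1 and BAX and least in FAS. Each cow belongs to 1 group, so both shares include the difference between RB and non-RB cows and overlap. Over the 30 arrays outside slide 1, an even spread would give 24.1%, and the cows held 62.9% for BAK1, 61.6% for BAX, 58.9% for BCL2L1, 46.4% for CASP8, 28.8% for BCL2 and 15.5% for FAS. The cells held from 5.46% for CASP8 to 29.9% for FAS there. Arrays of a cow also share slides, and the part of the slide was not tested.

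The fertility groups were set against each other, compartment by compartment, to ask whether the regulators differed with fertility. None of the 6 genes passed the test in any compartment or in the whole uterus (limma, Benjamini-Hochberg adjusted over all probes tested). The background was the same, with 0% of the probes called in each of the 5 comparisons. At an unadjusted p under 0.05, 0 of the 6 genes passed in each, where 3.41% of all probes did in CAR ipsilateral, 3.69% in ICAR ipsilateral, 1.74% in CAR contralateral, 1.60% in ICAR contralateral and 2.21% in the whole uterus. RB and non-RB arrays overlapped for each of the 6 genes in each compartment, where 1.97% of all probes did not overlap in CAR ipsilateral, 2.23% in ICAR ipsilateral, 1.37% in CAR contralateral and 1.48% in ICAR contralateral. With 4 arrays a side, no two-sided exact permutation p can fall below 0.0286.

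BAX had a higher mean in RB than in non-RB cows in each compartment, without passing the test. In CAR ipsilateral the difference was 0.33 (95% interval -0.26 to 0.93) and in ICAR ipsilateral 0.51 (-0.47 to 1.49). In CAR contralateral it was 0.54 (-0.33 to 1.40) and in ICAR contralateral 0.68 (-0.41 to 1.78). Over cow means it was 0.52 (SE 0.29, 1.43-fold, limma adjusted p = 0.99998, exact permutation p = 0.171), with an interval of -0.13 to 1.16. The difference depended on few arrays. Without non-RB replicate 2 it was 0.071 in ICAR ipsilateral, 0.15 in CAR contralateral and 0.24 in the whole uterus. Without the arrays of slide 1 it was 0.31 in ICAR contralateral and 0.39 in the whole uterus. In CAR contralateral this left out the same array, of replicate 2, and gave the same 0.15. The difference stayed above 0 in every compartment whichever replicate was left out. Only 2 of the 8 slides held arrays of both groups. With the slide as a block, the difference in CAR contralateral was -0.024 and rested on these 2 slides. In both ICAR compartments it stayed above 0 with that block and rested on the same 2 slides, 1 of which held the low array of non-RB replicate 2. On the other slide the RB and non-RB arrays read -0.98 and -1.18 in ICAR ipsilateral, and -1.20 and -0.95 in ICAR contralateral. In CAR ipsilateral it stayed above 0, but no slide held both groups. The slide was a random effect there, which does not take the slide out of the group difference. Markers of tissue components also had group medians that differed, with 0 called. In the whole uterus 4 of 5 epithelial markers found of 8 listed were lower in RB (median difference -0.65), and their mean level ranged from -1.33 to 1.78 over RB and from -1.38 to 1.35 over non-RB arrays. The 2 markers of B and plasma cells found of 6 had a median difference of 0.69, with 1 higher and 1 lower in RB, and a mean level of -1.81 to 0.70 over RB and -2.64 to 0.72 over non-RB arrays. The other lists had medians from -0.16 to 0.12. The part of tissue makeup in the values of BAX was not tested.

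FAS in ICAR ipsilateral had the largest difference of the 6 genes, with a mean of -0.86 ± 0.22 in the RB and -1.70 ± 0.99 in the non-RB arrays (SD, n = 4). The latter read -0.93, -3.13, -1.58 and -1.17, so that the lowest, of replicate 2, lay apart from the other 3. That array also had uneven copies of the GAPDH probe (SD 0.536). The difference was 0.85 (SE 0.44, limma adjusted p = 0.863, exact permutation p = 0.0571), and it was 0.37 without non-RB replicate 2. With the slide as a block it was 1.59. That value rests on the 2 slides that held arrays of both groups, 1 of which held the low array of replicate 2. In the other compartments the difference of FAS was -0.35 in CAR ipsilateral, 0.026 in CAR contralateral and -0.22 in ICAR contralateral. The RB effect in CAR minus that in ICAR was -0.48 for FAS (95% interval -1.37 to 0.41, limma adjusted p = 0.9999), so that a difference between the compartments was not shown.

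In the whole uterus the other 5 genes had smaller differences than BAX. RB minus non-RB was 0.076 for FAS (95% interval -0.41 to 0.56), 0.12 for BCL2 (95% interval -0.41 to 0.65) and -0.076 for BCL2L1 (-0.62 to 0.47). It was -0.21 for BAK1 (-0.82 to 0.40) and -0.050 for CASP8 (-0.73 to 0.63). Each of these intervals includes 0. Neither the difference of the RB effect between CAR and ICAR nor that between the horns passed the test for any of the 6 genes (0% of all probes called in each). At an unadjusted p under 0.05, 0 of the 6 genes passed in either, where 0.642% of all probes did for the compartments and 1.04% for the horns.

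**Figure D2:**
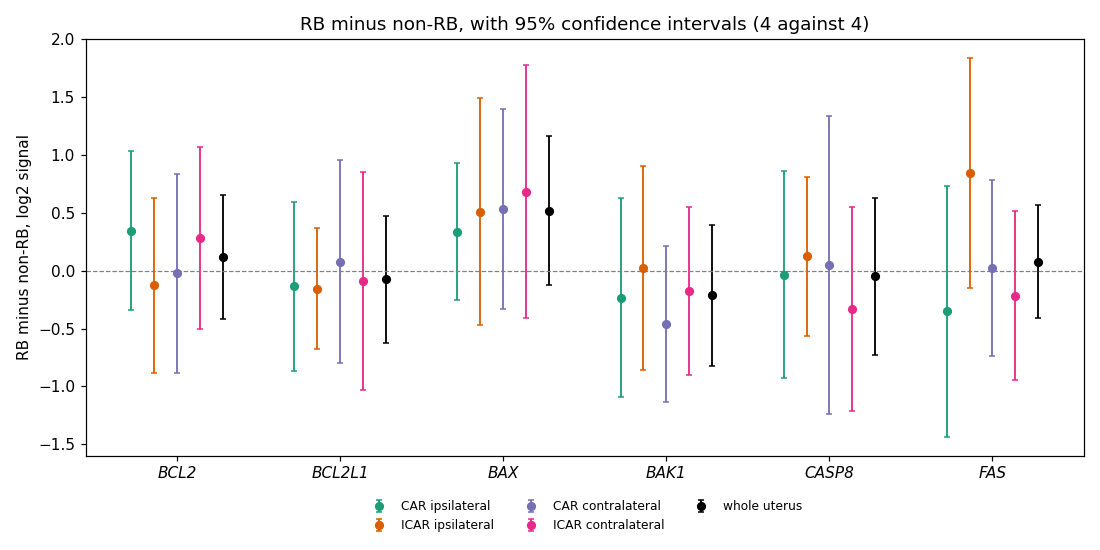
RB minus non-RB difference in log2 signal (vertical axis) for the 6 genes, with a point for each compartment and for the whole uterus. Bars are 95% confidence intervals from limma over 4 against 4 arrays or cow means, and every interval plotted includes 0.

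CAR and ICAR were then compared over the 32 arrays, with fertility group and horn in the model. BCL2 was 1.37-fold higher in CAR (0.45 in log2, SE 0.17, 95% interval 0.11 to 0.80), and FAS was 1.43-fold lower (-0.52, SE 0.22, interval -0.97 to -0.067), but neither passed the adjusted test (limma adjusted p = 0.147 and 0.222). Of all probes 1.35% were called, 0.387% higher and 0.960% lower in CAR. At an unadjusted p under 0.05, 2 of the 6 genes passed, BCL2 and FAS, where 16.2% of all probes did.

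For BCL2 the 16 CAR arrays ranged from 1.28 to 2.93 with a median of 1.91, and the 16 ICAR arrays from 0.89 to 2.52 with a median of 1.46. Within cows, CAR minus ICAR averaged over the horns was 1.24, 0.23, -0.22 and 0.73 in RB replicates 1 to 4 and 0.37, 0.39, 0.23 and 0.66 in non-RB replicates 1 to 4. It was above 0 in 7 of 8 cows, the exception being RB replicate 3 (exact permutation p = 0.0156 over sign flips). In that replicate the horns went opposite ways, and the average hides this. CAR and ICAR read 2.33 and 1.53 in its ipsilateral horn, and 1.28 and 2.52 in its contralateral horn. For FAS the 16 CAR arrays ranged from -3.46 to -0.90 with a median of -1.76, and the 16 ICAR arrays from -3.13 to -0.65 with a median of -1.10. Within cows the difference was -0.78, -0.27, -0.053 and -1.93 for RB replicates 1 to 4 and -0.29, 0.98, -0.62 and -1.18 for non-RB replicates 1 to 4. It was above 0 in 1 of 8 cows, non-RB replicate 2 (exact permutation p = 0.133). The horns of RB replicate 3 went opposite ways for FAS too. CAR and ICAR read -2.04 and -0.74 in its ipsilateral horn, and -0.90 and -2.09 in its contralateral horn.

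Whether a gene was called depended on the fit and on single cows. The CAR and ICAR arrays of a number, taken as a cow, are not independent, and the fit above leaves this out. With the replicate number as a block BCL2 was called (0.45, SE 0.14, limma adjusted p = 0.0445), where 8.41% of all probes were called, and FAS was not (limma adjusted p = 0.144). BCL2 was also called without RB replicate 3 (0.55, limma adjusted p = 0.0453), where 7.13% of all probes were called, and FAS was called without non-RB replicate 2 (-0.73, limma adjusted p = 0.0367), where 5.58% were. FAS was -0.32 without RB replicate 4, the cow with the largest difference. Without the arrays of slide 1, where 0% of all probes were called, the difference was 0.39 for BCL2 (limma adjusted p = 0.226) and -0.52 for FAS (limma adjusted p = 0.262). That fit kept the low FAS arrays with the next most uneven copies of the GAPDH probe.

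**Figure D3:**
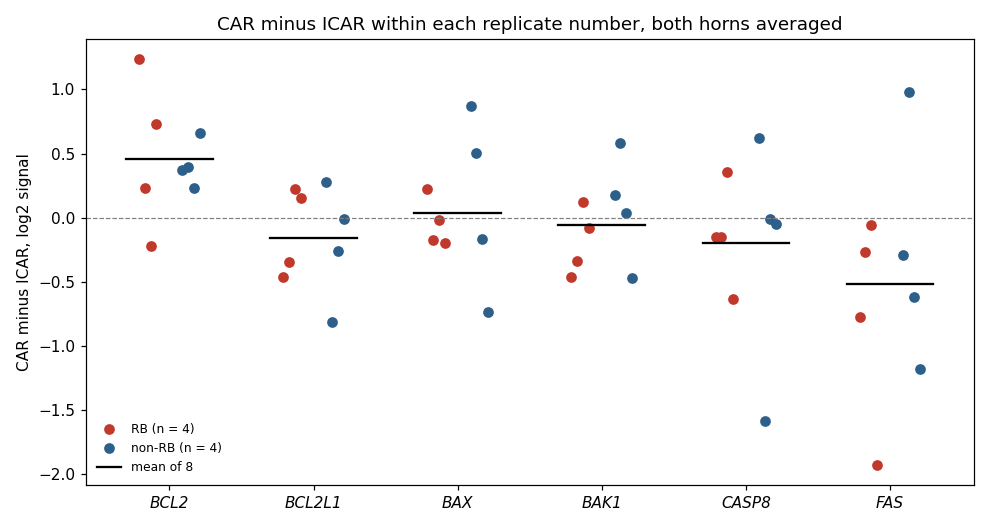
CAR minus ICAR difference in log2 signal (vertical axis) within each replicate number, averaged over the horns, for the 6 genes. Each point is 1 of 8 cows and the black line is their mean. BCL2 is above 0 in 7 of 8 cows and FAS below 0 in 7 of 8.

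The other 4 genes showed smaller differences between CAR and ICAR. They were -0.15 for BCL2L1 (95% interval -0.50 to 0.19), 0.037 for BAX (-0.38 to 0.45), -0.054 for BAK1 (-0.41 to 0.30) and -0.20 for CASP8 (-0.65 to 0.24). CASP8 was lower in CAR in 6 of 8 cows, and BAX, whose mean was higher in CAR, was higher in 3 of 8. The largest CASP8 difference was -1.59 in non-RB replicate 2, and without that replicate the value for CASP8 was -0.0027. Without the arrays of slide 1 the differences were -0.044 for BCL2L1, 0.019 for BAX, -0.033 for BAK1 and -0.17 for CASP8.

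Markers of tissue components were set beside these values. Of 5 epithelial markers found of 8 listed, all 5 had a lower mean in CAR, with a median difference of -0.13. FOXA2, a transcription factor of the uterine glands, was the 1 called (-1.69, limma adjusted p = 0.0361). The differences of CDH1 (-0.13), CLDN3 (-0.067) and CLDN4 (-0.066) were smaller than their SE. The mean level of the epithelial markers ranged from -1.38 to 1.28 over CAR arrays and from -1.33 to 1.78 over ICAR arrays. Of 6 stromal markers found of 7, 0 were called and all 6 had a higher mean in CAR, with a median difference of 0.35. Their mean level ranged from 0.35 to 1.35 over CAR arrays and from -0.31 to 1.27 over ICAR arrays. The part of tissue makeup in the values of BCL2 and FAS was not tested.

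Between the horns, 0 of the 6 genes passed the adjusted test, as 0% of all probes did, and 0 passed at an unadjusted p under 0.05, where 1.36% of all probes did. The differences, ipsilateral minus contralateral, ran from -0.14 for FAS to 0.16 for BCL2L1 (limma adjusted p = 0.9999 for each).

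Outside the rule, 2 further probes bore on the list. A probe that names BCL2 in another column of the array file was at a median of -3.66 and correlated with the first BCL2 probe at r = 0.65 over the 32 arrays and at r = 0.60 without the arrays of slide 1. Its CAR minus ICAR difference was 0.24 (SE 0.20, limma adjusted p = 0.633) and above 0 in 7 of 8 cows. The exception was non-RB replicate 1, while for the first probe it was RB replicate 3.

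The other is a probe described only as similar to the tumor necrosis factor receptor superfamily, which the study's lists name TNFRSF25, a death receptor. Its sequence is shown since the array file does not name its gene, with capitals as above.
TNFRSF25: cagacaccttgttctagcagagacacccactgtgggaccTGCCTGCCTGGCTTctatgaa
The study chose this probe on CAR contralateral of these same samples, so its values are given as a description. In CAR contralateral it read -4.26, -4.21, -4.36 and -4.09 in RB and -4.33, -4.51, -4.80 and -4.50 in the non-RB group. All but 1 of the non-RB arrays lay below the RB arrays. In CAR ipsilateral the means were -3.98 ± 0.18 in RB and -3.88 ± 0.39 in non-RB cows (SD, n = 4). Over all arrays its mean was -4.03 in the ipsilateral and -4.38 in the contralateral horn. That difference (0.36, SE 0.12) did not pass the adjusted test (limma adjusted p = 0.9999), where 0% of all probes did.

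The wider pathway was described through a list of 100 other genes, of which 49 had a probe. They shared 47 probes, since the probe of CASP4 also carries the name CASP13 and a single probe carries the names BIRC2 and BIRC3, and 44 probes were tested. None was called in any comparison. Between RB and non-RB cows, 1 of 44 passed at an unadjusted p under 0.05, VDAC1, a channel of the outer mitochondrial membrane, in ICAR ipsilateral (1.02, SE 0.42, limma adjusted p = 0.863), where 3.69% of all probes did. Between the horns 1 of 44 did, its relative VDAC2 (-0.33, SE 0.15, limma adjusted p = 0.9999), where 1.36% of all probes did. A single probe of 44 is near these shares, and both genes are named after their values were seen. Between CAR and ICAR, 22 of 44 had a higher mean in CAR, with a median difference of -0.00092 against 0.015 over all probes tested.

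By role, a higher mean in CAR was seen for 7 of 9 adaptors and regulators at the receptor, 3 of 5 BH3-only and related genes and 1 of 6 other BCL2 family members and partners. It was seen for 3 of 7 mitochondrial factors, 2 of 4 other caspases, 2 of 3 receptors, 1 of 2 caspase inhibitors, 1 of 3 execution genes and the 1 ligand. At an unadjusted p under 0.05, 2 of 44 probes passed, where 16.2% of all probes did. Both were lower in CAR and are named here after their values were seen. They were PERP, a membrane protein of cell junctions (-0.92, SE 0.25, limma adjusted p = 0.0525), and CASP6, an executioner caspase (-0.31, SE 0.14, limma adjusted p = 0.270).

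**Figure D4:**
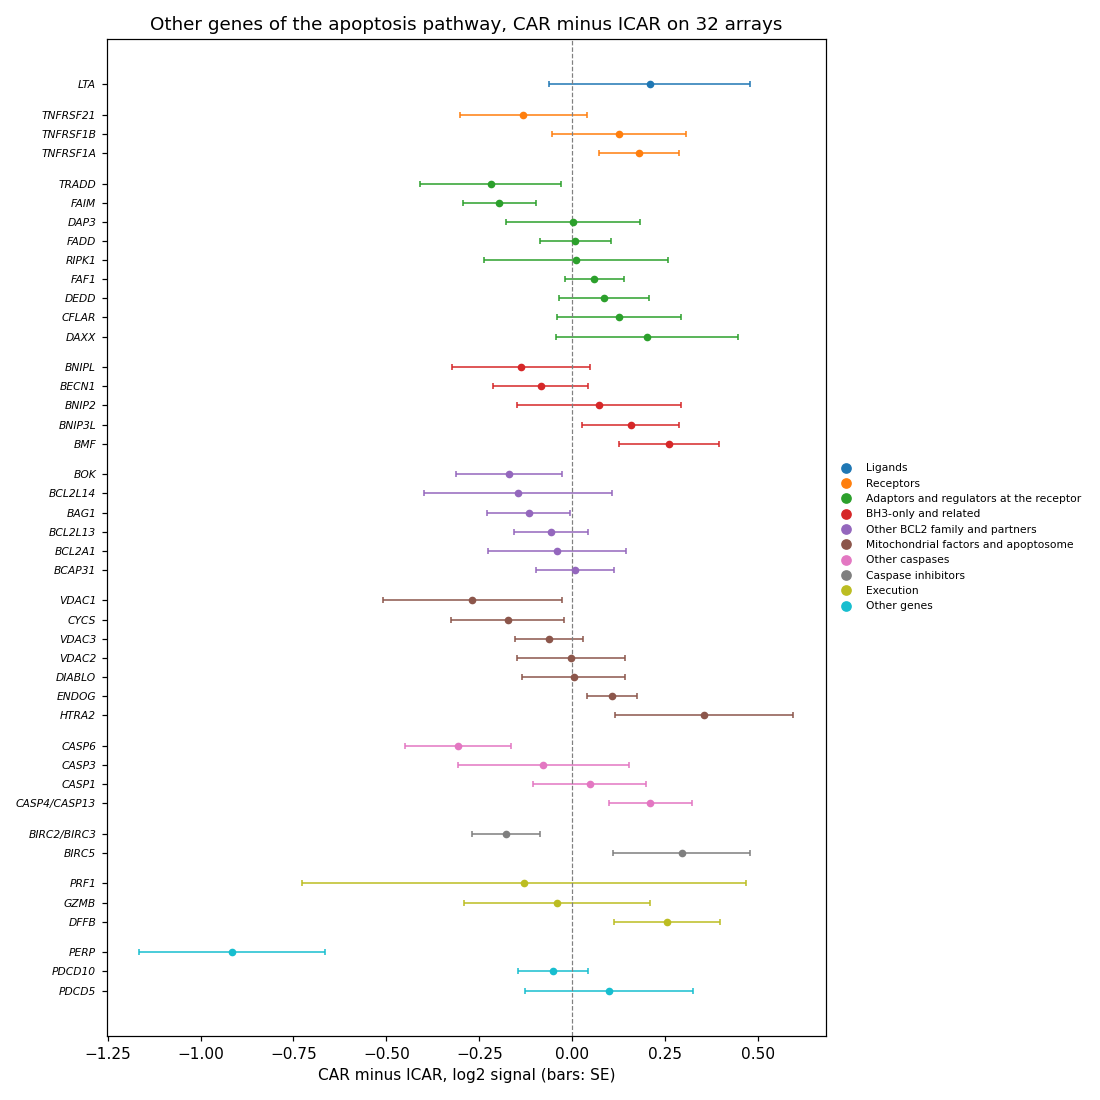
CAR minus ICAR difference in log2 signal (horizontal axis) for 43 probes of other genes of the apoptosis pathway, coloured by role, with bars of 1 SE from limma on 32 arrays. PERP, at -0.92, lies farthest from 0.

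Among the 6 genes themselves, the highest correlations over the 32 arrays were between BAK1 and FAS (r = 0.59) and between BCL2L1 and CASP8 (r = 0.52), and the lowest was between BCL2 and FAS (r = -0.54). BAX and BAK1 were at r = 0.00054. Over the 30 arrays outside slide 1 these values were 0.58, 0.52, -0.60 and 0.25 in the same order. The arrays share cows and slides, and these values are descriptions. Among other genes, those most like BCL2 were GDAP1L1 (r = 0.90), GNAO1 (0.87) and TCEA2 (0.87). Those most like FAS were EPHX2 (0.90), NEIL2 (0.87) and SGK2 (0.84), and those most like BAX were CCDC107 (0.86), MGST1 (0.82) and UCHL5 (0.80). For BAK1 they were NUDT21 (0.88), APMAP (0.87) and RAB3B (0.87), for BCL2L1 POLR2C (0.87), CDK11B (0.83) and GPI (0.83), and for CASP8 CXADR (0.74), DIMT1 (0.73) and HABP4 (0.73). Over the same 30 arrays, r with these genes lay between 0.71, for BAX and UCHL5, and 0.91, for FAS and EPHX2.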

How the data were processed

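Endometrial RNA was labelled with Cy3 and hybridized to 32 one-colour 60-mer arrays, 4 for each combination of group, compartment and horn. Spots were read by the authors in Agilent Feature Extraction 9.5, whose deposited output holds a processed intensity, background-subtracted and not normalized between arrays, and spot flags. A log2 table was deposited too, equal to those used here up to a constant of each array (0.00420 to 0.0140). From each log2 intensity the 75th percentile of its array was subtracted, with outlier spots set to missing and control spots left out. Probes were tested when well above background on at least 2 of 8 arrays (a compartment) or 8 of 32 (all arrays). limma 3.58.1 (R 4.3.3) was run on all such probes with Benjamini-Hochberg adjustment and a threshold of 0.05, and was tested on simulated data. The whole uterus was compared on the mean of the 4 arrays of each cow. Genes of the list also had two-sided exact permutation tests, over 70 assignments or 256 sign flips. Alternatives were other filters, quantile normalization, normexp (offset 50), the deposited table, the methods' t-test, slide, scan session or replicate number as a block, subsets, and leaving out each replicate. Without the arrays of slide 1 was added after seeing the data for RB against non-RB. The genes to be named were the members, the 3 genes most correlated with each, and pathway genes called or at an unadjusted p under 0.05 in 2 or more compartments. No pathway gene met this. Those with values given (VDAC1, VDAC2, PERP and CASP6) were picked outside it, for an unadjusted p under 0.05 in 1 comparison. The members, the pathway list and the marker lists were chosen with earlier results of these data known. The number of arrays limits the precision. Results of 1 item of the pathway list are not reported here. Symbols of other genes came from the array files and a RefSeq gene table.

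Other marker lists gave no call between CAR and ICAR. Median differences were 0.15 for smooth muscle (4 of 6 genes found), 0.023 for endothelium (5 of 6) and -0.034 for macrophages (3 of 5). They were -0.20 for B and plasma cells (2 of 6) and -0.075 for T and NK cells (10 of 10, of which 9 were tested). The 1 red blood cell marker found of 4 was not well above background on enough arrays to be tested.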

Additional observations from a re-analysis of the deposited data

Results flagged for a closer look

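In 2 of 48 sets of 4 arrays (6 genes in 8 cells of the design), a single array lay far from the other 3 by Dixon's ratio, and chance alone flags about 1 in 20 sets. BCL2 in ICAR contralateral of RB cows was 2.52 in replicate 3, while the other 3 arrays lay between 1.36 and 1.45. BAX in CAR contralateral of non-RB cows was -2.76 in replicate 2, while the other 3 lay between -1.34 and -1.11. The BAX array is 1 of the 2 arrays of slide 1, with uneven copies of the GAPDH probe, and the part of this in its value was not tested.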

How the results depend on the processing

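No gene of the list was called in any comparison as reported, and over 1008 recomputed differences 3 were called, all between CAR and ICAR. With the replicate number as a block 1 gene was called, BCL2 (0.45, adjusted p = 0.0445), where 1086 probes were called in all (8.41%) against 174 without it. Leaving out each replicate gave 0 to 1 genes called there, and 0 to 915 probes in all. Correlations between arrays were also taken after the mean of each cell was subtracted. Arrays of the same number correlated above 0.1 in 22 of 24 pairs in RB and 21 of 24 in non-RB cows. The means were 0.41 and 0.38, against -0.14 and -0.12 for different numbers. As deviations within a cell sum to 0, the values for different numbers follow largely from those for the same number. Most pairs of the same number thus correlated above 0.1, though not every pair did. The reported fit had no block because the labels do not tie a number to a cow, and it leaves this likeness out. Cow means and within-cow differences take the number as the cow. The count of all probes called between CAR and ICAR was 120 without a filter, 64 with normexp, 250 with the slide and 531 with the scan session as a block, and 0 without the arrays of slide 1. With 32 arrays taken as independent in the methods' t-test, 67 probes were called in the whole uterus and none was a gene of the list (BAX unadjusted p = 0.0159, adjusted p = 0.256). With normexp the median of all probes moved to -0.20 for RB minus non-RB in ICAR contralateral and to 0.14 for the RB effect in CAR minus ICAR.

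Of the 1008 differences 114 had a sign other than in the reported fit, and 0 of these were called in either. The largest reported difference among them was 0.54, that of BAX in CAR contralateral, which changed sign with the slide as a block. In ICAR ipsilateral and both contralateral compartments, that block takes the RB difference only from the 2 slides that held both groups. In CAR ipsilateral no slide held both, and the slide was a random effect. The low BAX array of slide 1 in CAR contralateral therefore does not enter it. The causes of the sign changes were not tested. Blocked on scan session, the opposite sign was seen for CAR ipsilateral, CASP8 0.016, and for ICAR ipsilateral, BAK1 -0.10, and for CAR contralateral, BCL2 0.70, BCL2L1 -0.13, CASP8 -0.40 and FAS -0.23, and for ICAR contralateral, BCL2 -0.042, BCL2L1 0.32 and FAS 0.39, and for the horn comparison, BCL2 0.060 and BAX -0.19, and for the RB effect by horn, BAX 0.15. With quantile normalization the opposite sign was seen for CAR contralateral, CASP8 -0.033 and FAS -0.070. Blocked on slide, the opposite sign was seen for CAR contralateral, BCL2 0.77, BCL2L1 -0.20, BAX -0.024, CASP8 -0.40 and FAS -0.29, and for ICAR contralateral, BCL2 -0.078, BCL2L1 0.32 and FAS 0.31, and for CAR against ICAR, BAX -0.016, and for the horn comparison, BCL2 0.084, BAX -0.22 and CASP8 0.038, and for the RB effect in CAR minus ICAR, BCL2 -0.17 and BAX 0.015, and for the RB effect by horn, BAX 0.47. With normexp the opposite sign was seen for CAR against ICAR, BAX -0.027, and for the horn comparison, BAX -0.044. Within RB cows the opposite sign was seen for CAR against ICAR, BAX -0.043, and for the horn comparison, BAX -0.078, BAK1 0.054, CASP8 0.027 and FAS 0.028. Within non-RB cows the opposite sign was seen for CAR against ICAR, BAK1 0.083. Within the ipsilateral horn the opposite sign was seen for CAR against ICAR, BAX -0.20. Without the arrays of slide 1 the opposite sign was seen for the horn comparison, BCL2 0.046, BAX -0.17 and BAK1 0.011, and for the RB effect in CAR minus ICAR, BCL2L1 -0.16, and for the RB effect by horn, BAX 0.19, and for CAR contralateral, BCL2 0.29 and BCL2L1 -0.14, and for ICAR contralateral, BCL2L1 0.19 and BAK1 0.024. Within CAR the opposite sign was seen for the horn comparison, BAX -0.23. Within ICAR the opposite sign was seen for the horn comparison, CASP8 0.084 and FAS 0.031.

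When each replicate was left out in turn, genes with a change of sign were as follows. For CAR ipsilateral the differences ran from -0.35 to 0.076 for BCL2L1, -0.53 to 0.11 for BAK1, -0.39 to 0.23 for CASP8, -0.67 to 0.085 for FAS. For ICAR ipsilateral the differences ran from -0.35 to 0.14 for BCL2, -0.23 to 0.018 for BCL2L1, -0.35 to 0.31 for BAK1, -0.045 to 0.31 for CASP8. For CAR contralateral the differences ran from -0.19 to 0.29 for BCL2, -0.14 to 0.44 for BCL2L1, -0.27 to 0.60 for CASP8, -0.22 to 0.20 for FAS. For ICAR contralateral the differences ran from -0.37 to 0.19 for BCL2L1, -0.32 to 0.024 for BAK1, -0.41 to 0.0079 for FAS. For the whole uterus the differences ran from -0.22 to 0.13 for BCL2L1, -0.33 to 0.045 for BAK1, -0.21 to 0.21 for CASP8, -0.017 to 0.24 for FAS. For CAR against ICAR the differences ran from -0.082 to 0.15 for BAX, -0.15 to 0.0049 for BAK1. For the horn comparison the differences ran from -0.056 to 0.084 for BAX, -0.095 to 0.067 for BAK1, -0.15 to 0.045 for CASP8. For the RB effect in CAR minus ICAR the differences ran from -0.17 to 0.32 for BCL2, -0.11 to 0.25 for BCL2L1, -0.44 to 0.091 for BAX, -0.33 to 0.40 for CASP8. For the RB effect by horn the differences ran from -0.090 to 0.16 for BCL2, -0.37 to 0.075 for BCL2L1, -0.031 to 0.35 for BAK1, -0.040 to 0.42 for CASP8.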
